A study of Agaricus blazei with 33 samples.

Results

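The sterol synthesis genes of *Agaricus blazei*, the edible Royal Sun mushroom, were described here over mycelia, primordia and fruiting bodies. They were 9 of the 10337 genes in the deposited expression table, chosen by what they encode, but with earlier results of these data known. Of these, 7 carry the domains of squalene synthase, squalene epoxidase, oxidosqualene cyclase, sterol methyltransferase or the ERG4/ERG24 reductases. In the part of the study's annotation used here A00566, A00787 and A00804 are listed under steroid biosynthesis, and A00804 is also one of the 7. All libraries came from strain JA, a dikaryotic cultivar grown on compost. The 33 libraries fell into 11 conditions of 3: mycelia taken 20 days after casing, primordia, and the whole fruit body, the pileus (cap) and the stipe (stalk), each at the button, harvest and maturation stages. RNA was extracted in bulk from each, so fewer cells of a type and less RNA per cell cannot be told apart. The labels do not say that replicates came from separate cultures, so the p-values measure the spread between these libraries, which may be technical.

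Sterols set the stiffness and permeability of fungal membranes, and ergosterol is the main one in most fungi. The route starts from isoprenoid units. Squalene synthase joins a pair of farnesyl diphosphates to squalene, squalene epoxidase adds oxygen, and oxidosqualene cyclase folds the chain into lanosterol. Lanosterol is then demethylated, reduced, methylated on its side chain and desaturated in its rings, and the cytochrome P450 of the demethylation, CYP51 or Erg11, is the target of azole antifungals.

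The members lie on 5 contigs of the JA-15036 assembly, a monospore strain derived from JA, and none overlapped another gene. Squalene formation is represented by A07651 (contig 5, 512689 to 514557, plus strand) and A06839 (contig 3, 1559314 to 1560326, plus strand), both with a squalene/phytoene synthase domain. That domain also occurs in the human mitochondrial protein NDUFAF6, and the table does not say which of the genes encodes squalene synthase. A07666 (contig 5, 541841 to 543507, plus strand) is the squalene epoxidase. A02216 (contig 16, 157547 to 160327, plus strand) has the N- and C-terminal domains of the squalene-hopene cyclases, the family of oxidosqualene cyclase. A00566 (contig 11, 649966 to 651928, minus strand) is 1 of 138 genes described as cytochrome P450 and is annotated as the lanosterol demethylase. A00804 (contig 11, 1462654 to 1464186, plus strand) and A07806 (contig 5, 1081736 to 1083518, plus strand) are the 2 genes of the ERG4/ERG24 family, which in *Saccharomyces cerevisiae* holds both the reductase that follows demethylation and the reductase of the last step. A00804 is annotated as the former. A08445 (contig 6, 965888 to 967184, minus strand) is the sterol methyltransferase, Erg6 in yeast, which methylates the side chain. A00787 (contig 11, 1404583 to 1405783, plus strand) belongs to the fatty acid hydroxylases and is annotated as the sterol desaturase, Erg3 in yeast. The coding lengths ran from 906 to 2187 bases.

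Reads assigned to genes ranged from 15573864 to 21454052 a library, and the members took 171 to 22323 reads each, so that the counting error alone was at most 7.65% of a value. Some libraries did not sit with their own condition. By the mean Pearson r of log2 values over all genes, 8 of 33 libraries were nearer to another condition. Button stipe 1 had r = 0.928 with the other button stipes and 0.964 with primordia, button fruit body 2 had 0.923 with its own condition and 0.964 with button stipe, and maturation pileus 3 had 0.889 with its own and 0.940 with maturation stipe. Button fruit bodies 1 and 3 had 0.960 and 0.948 with their own condition and 0.972 and 0.982 with button pileus. The 3 maturation fruit bodies differed most among themselves (r = 0.815 to 0.949). Number 1 was nearest to stipe (0.979), number 2 also to stipe (0.940, and 0.933 with its own) and number 3 to pileus (0.955). The sterol genes followed these libraries. Button stipe 1 was the highest of its condition for 9 of 9 members and button fruit body 2 the lowest for 9 of 9, maturation pileus 3 was the lowest for 7, and maturation fruit body 1 was the lowest and number 3 the highest for 8 each. The cause was not tested.

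Levels are in FPKM, fragments per kilobase of coding sequence scaled to the size of the library, so genes can be compared with each other. The sterol methyltransferase A08445 was the most abundant member, with a mean of 453 FPKM over the 33 libraries, and A06839 was the least abundant, with 23.8. The other 7 had means from 52.7 (A07666) to 131 (A02216). The highest condition mean was in the harvest fruit body for 7 of 9 members, in button pileus for A07666 and in harvest pileus for A06839. The lowest was in mycelia for 7, in button stipe for A06839 and in maturation stipe for A00566. The libraries of the highest condition were apart from those of the next only for A02216, where the next was button pileus. Even there button fruit body 3, at 218 FPKM, lay within the harvest range of 205 to 244. The means in harvest fruit body and button pileus were nearly equal for A07806 (220 and 219 FPKM) and A08445 (747 and 743). Between the lowest and the highest condition the mean differed 7.53-fold for A02216, 5.74-fold for A00566, 4.88-fold for A07806, 4.30-fold for A07666 and 4.25-fold for A08445, but 2.95-fold for A07651, 2.42-fold for A00804, 2.03-fold for A06839 and 1.62-fold for A00787. Of the 90 neighbouring pairs of conditions in the orders of the 9 genes, the libraries were apart in 10. Among them were maturation stipe above mycelia for A02216, A07666 and A08445 and mycelia above maturation stipe for A00566. The share over all genes was not counted for such pairs, so the number is a description only. In means taken after the data were seen, without button stipe 1, button fruit body 2, maturation pileus 3 and maturation fruit body 1, the harvest fruit body was highest for 6 members and A00804 was highest in maturation pileus, while the lowest conditions were as before. The others of the 8 libraries nearer to another condition, maturation fruit body 3 among them, were kept in these means. When libraries were scaled by their total reads instead, 2 members and not 7 had the highest mean in the harvest fruit body, and button pileus led for 5 (A07666, A07806, A08445, A00566 and A00787).

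**Figure D1:**
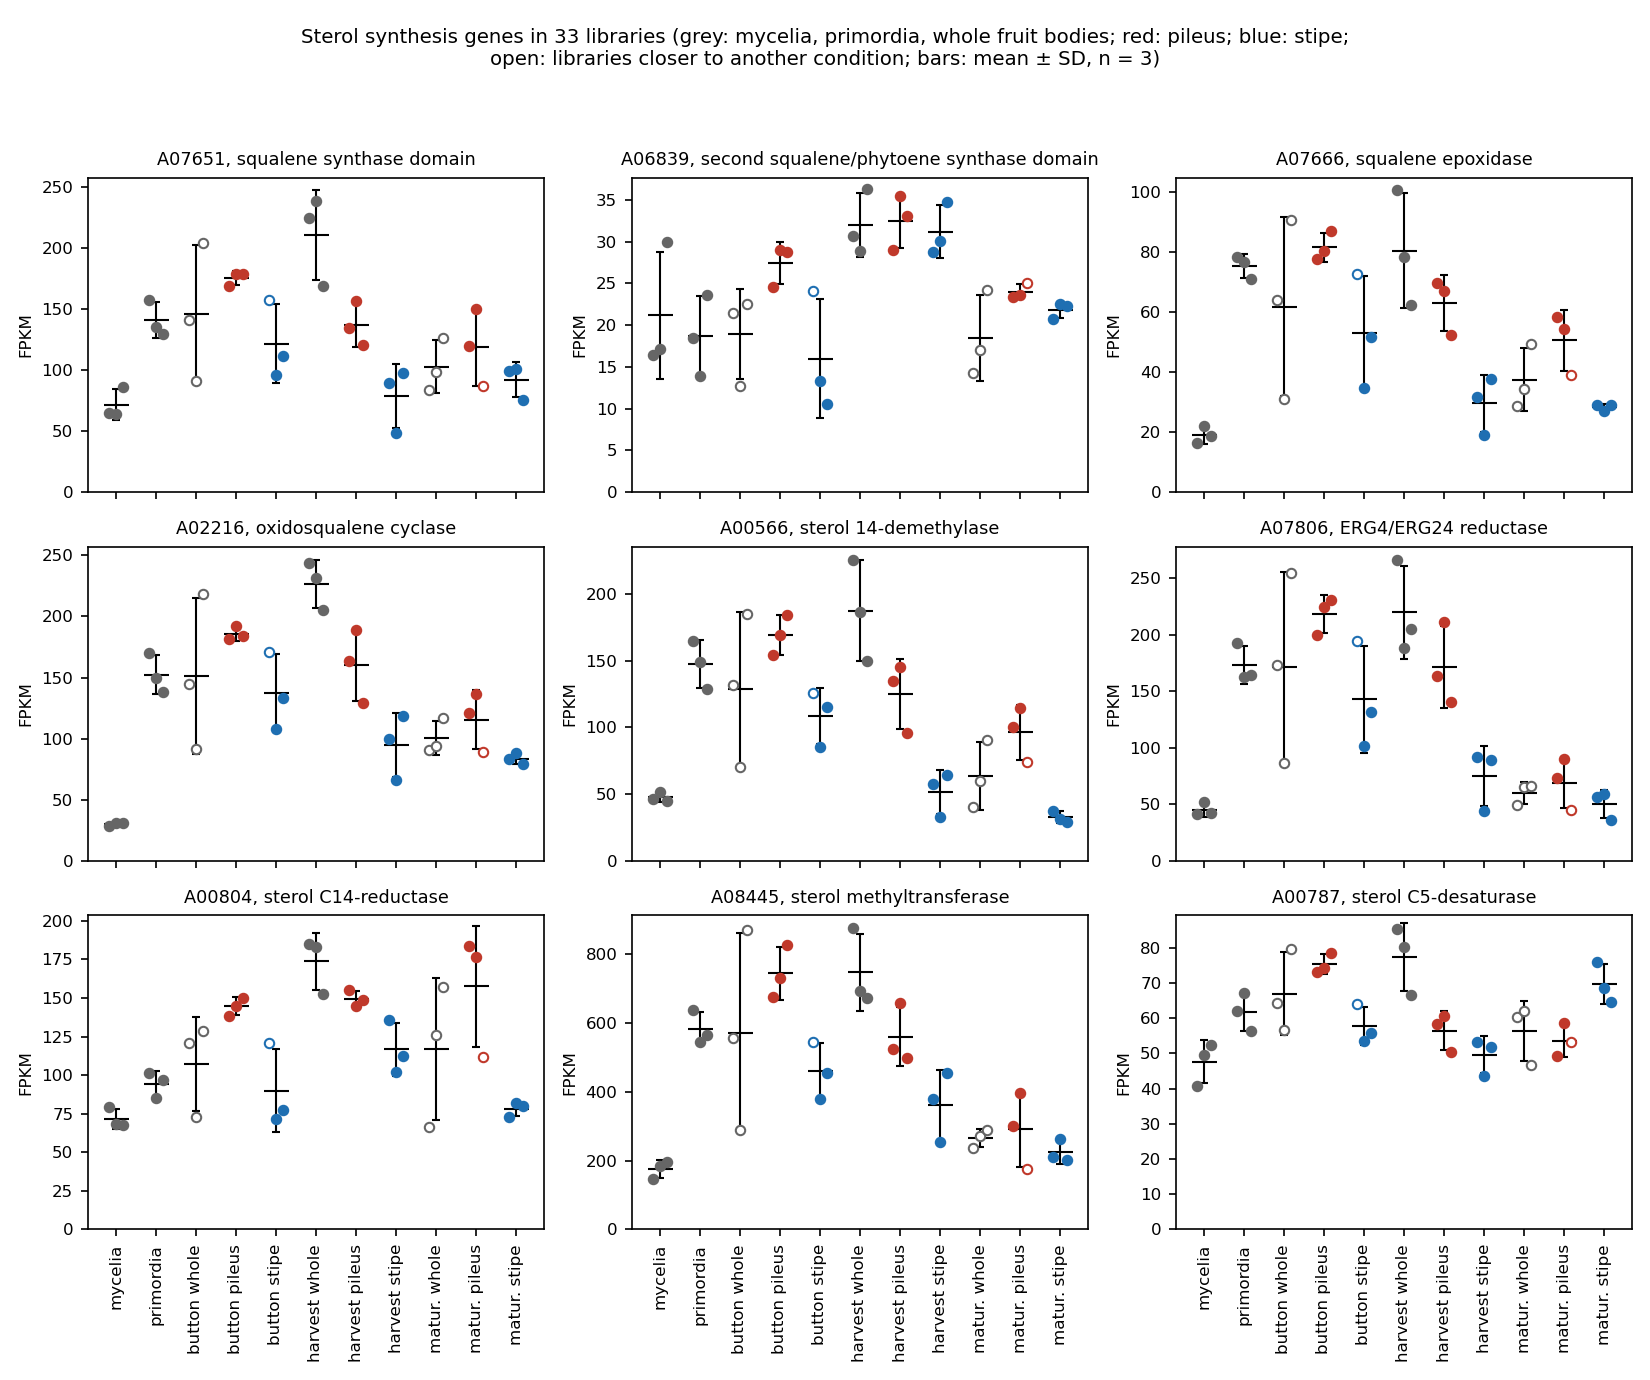
FPKM (y axis) of the 9 sterol synthesis genes in each of the 33 libraries by condition (x axis), with the mean and SD of 3 libraries as bars and the 8 libraries nearer to another condition as open points. A02216 has a mean of 30.1 FPKM in mycelia and 227 in harvest fruit bodies, while A06839 and A00787 span the narrowest ranges.

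From mycelia to primordia, the squalene epoxidase, the cyclase, the demethylase, the ERG4/ERG24 gene A07806 and the methyltransferase rose, while the second squalene/phytoene synthase gene did not follow. Squalene epoxidase A07666 had 16.2, 21.9 and 18.8 FPKM in the 3 mycelia and 78.3, 76.8 and 70.8 in the 3 primordia. The cyclase A02216 had 28.5, 30.6 and 31.2 FPKM in mycelia and 169.7, 149 and 138 in primordia. All primordia lay far above all mycelia for both. The demethylase A00566 stood at 46.2, 51.4 and 44.8 FPKM in mycelia and 164, 149 and 128 in primordia, a 3.09-fold difference. A07806 had 41.2, 52.0 and 42.1 FPKM against 193, 163 and 164, and the methyltransferase A08445 had 147, 185 and 195 against 638, 545 and 565.9. Again no library of one condition reached the other. A gene was called where the adjusted p of limma, Benjamini-Hochberg over all genes tested, was under 0.05 and the log2 fold change at least 1 in size. On the log2(FPKM + 0.1) scale used throughout, the changes were 2.33 ± 0.11 (SE) for A02216, 1.99 for A07666, 1.94 for A07806, 1.74 for A08445 and 1.63 for A00566, with adjusted p-values of limma from 4.10e-06 to 4.43e-05. So 5 of 9 members were called higher, against 15.1% of the 9485 genes tested (and 22.5% called lower). From the same mycelia and primordia the study had already reported raised expression of steroid genes, among them squalene epoxidase, cyclase, demethylase and methyltransferase. This count therefore repeats a reported result and is no separate support. The study also named squalene synthase, further reductases of the route and sterol O-acyltransferase as raised. Here neither squalene/phytoene synthase gene was called. Of the 13 genes of sterol sensing, transport and storage 0 were called higher. In 8 of 9 members all primordia lay above all mycelia, against 35.1% of genes. The 5 called members were called in all 17 alternative settings as well.

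A07651 had 64.7, 63.9 and 86.2 FPKM in mycelia and 158, 135 and 129.8 in primordia, a log2 difference of 0.99 (adjusted p of limma 0.000819), just short of the threshold and past it in 6 of 17 alternatives. The reductase A00804 (0.40, adjusted p of limma 0.0185) and the desaturase A00787 (0.38, 0.0352) had small differences with all primordia above all mycelia. A06839 overlapped, at 16.4, 17.1 and 30.0 FPKM in mycelia and 18.4, 13.9 and 23.5 in primordia, and its log2 difference of -0.16 (95% interval -0.81 to 0.49) turned to 0.19 with library totals, 0.12 without mycelia 3 and 0.03 without primordia 2. Library totals shifted the median of all genes by 0.35 in this comparison and the members' values with it.

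No member was called from primordia to the whole button fruit body, where only 0.0324% of 9271 genes were called (3 genes by limma and by voom, with 1141 at an unadjusted p under 0.05). The log2 differences of the members ran from -0.42 (A07666) to 0.15 (A00804). Their intervals were wide, from -1.33 to 0.49 for A07666 and from -1.12 to 0.78 for A08445, so a difference of 2-fold was within reach for A07666, A08445, A07806 and A00566. The 3 button fruit bodies lay far apart. For A08445 the 3 button fruit bodies had 555, 288 and 868 FPKM, and for A07806 they had 174, 86.8 and 255. Without number 2, the numbers 1 and 3 that remained were both nearest to button pileus. All 9 differences were then positive, from 0.02 (A07666) to 0.41 (A00804), none was called, and the count over all genes rose from 3 to 379. Without number 3 all 9 were negative, from -0.76 (A07666) to -0.0071 (A00804), and 0 genes were called, as without number 1. With the replicate number as a block, 0 genes were called.

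From the button to the harvest fruit body all 9 members had higher means, but 0 were called, where 0.174% of 9206 genes were called by limma (16 genes, 0 with voom, and 1875 at an unadjusted p under 0.05). The log2 differences ran from 0.21 (A00787) to 0.79 (A06839), with a median of 0.60 against -0.00 over all genes, and adjusted p-values of limma from 0.174 to 0.544. A06839 had 21.5, 12.7 and 22.5 FPKM in button and 30.7, 28.9 and 36.3 in harvest fruit bodies, and A00804 had 121, 72.7 and 129 and 185, 183 and 153. For these 2 the libraries did not overlap, against 14.5% of genes with all harvest above all button libraries, and for the other 7 they did. Part of the difference rested on button fruit body 2. Without it the log2 values of A07666, A07806 and A08445 were 0.05, 0.05 and 0.09, those of A06839 and A00804 were 0.53 and 0.47, and 87 genes were called in all.

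From the harvest to the maturation fruit body 5 members fell, and A07806 and the demethylase had the largest changes. A07806 had 267, 188 and 206 FPKM at harvest and 49.1, 65.4 and 66.6 at maturation. The demethylase A00566 had 226, 186 and 149.8 and 40.1, 60.0 and 90.3, and the methyltransferase A08445 had 876, 693 and 671 and 236, 271 and 289. Every maturation library lay below every harvest library for these 3. The cyclase A02216 went from 244, 231 and 205 FPKM to 90.9, 93.7 and 116, and A07651 from 225, 239 and 169 to 83.4, 98.7 and 127, again without overlap. The log2 changes were -1.86 ± 0.22 (SE) for A07806, -1.62 for A00566, -1.49 for A08445, -1.18 for A02216 and -1.04 for A07651, with adjusted p-values of limma from 0.00991 to 0.0395. Thus 5 of 9 members were called lower, against 5.63% of 9269 genes. Squalene epoxidase A07666 (-1.11, adjusted p of limma 0.0513) narrowly missed. A06839 (-0.82), A00804 (-0.66) and A00787 (-0.46) were not called, and A00804 alone overlapped, with 66.7, 126 and 157 FPKM at maturation. All maturation libraries lay below all harvest libraries for the other 8, against 19.7% of genes. The calls leaned on single libraries, though the directions did not change. Without maturation fruit body 1, the one nearest to stipe, 4 members and 1040 genes were called, and A07651 (-0.90, adjusted p of limma 0.0671) lost its call. The number of members called was 1 without harvest fruit body 1, 2 without number 2, 0 without number 3, 0 without maturation fruit body 2, 7 without maturation fruit body 3 and 0 with the replicate number as a block, while the count over all genes moved from 1008 to 126, 287, 60, 27, 2238 and 23. With all 33 libraries in the fit, 6 members and 2192 genes were called.

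**Figure D2:**
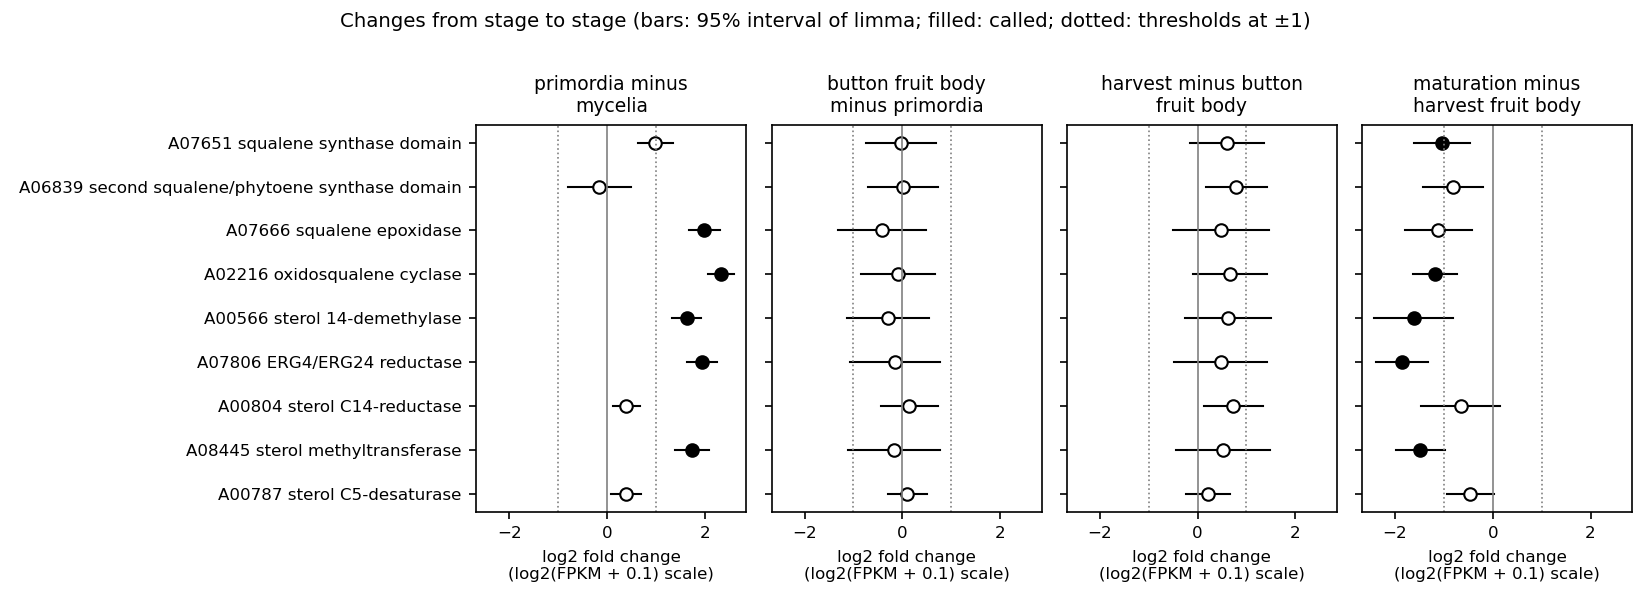
Log2 fold change (x axis, log2(FPKM + 0.1) scale) of each member (y axis) at the 4 steps between mycelia, primordia and whole fruit bodies, with the 95% interval of limma. Filled points are called, 5 of them above 0 in primordia against mycelia and 5 below 0 in maturation against harvest.

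At the button stage every member was higher in all 3 pilei than in all 3 stipes, by modest amounts, and 28.7% of 9338 genes were separated in the same direction. The cyclase A02216 had 181, 192 and 184 FPKM in pileus and 171, 108 and 133 in stipe, A00804 had 139, 145 and 150.3 and 121, 71.4 and 77.6, and A06839 had 24.5, 29.0 and 28.7 and 24.1, 13.3 and 10.6. The first stipe library was the closest to the pilei for each of them. The log2 differences ran from 0.39 (A00787) to 0.86 (A06839). None reached 1, so 0 of 9 members were called, against 7.91% of 9338 genes called higher in pileus, although 3 had an adjusted p of limma under 0.05: A06839 (0.00926), A00804 (0.0150) and A00787 (0.0291). Without button stipe 1 and maturation pileus 3, a setting added after the data were seen, all 9 differences were larger, from 0.46 (A00787) to 1.20 (A06839), A06839 was called (adjusted p of limma 7.48e-06), and the calls over all genes rose from 1669 to 2751. Library totals also called A06839.

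At the harvest stage the pileus carried more of the demethylase, A07806 and the squalene epoxidase than the stipe. A00566 had 135, 145 and 95.6 FPKM in pileus and 57.5, 32.6 and 64.3 in stipe. A07806 had 164, 212 and 140.3 and 92.2, 44.2 and 88.9, and A07666 had 69.6, 66.9 and 52.2 and 31.7, 19.1 and 37.7. No stipe library reached a pileus library for 7 of 9 members, these 3 among them, a share not counted over all genes. Harvest stipe 2 was the lowest for each of the 3. The log2 differences were 1.31 ± 0.25 (SE, adjusted p of limma 0.000807), 1.25 ± 0.32 (0.00558) and 1.13 ± 0.26 (0.00292). These 3 of 9 were called higher, against 16.7% of 9338 genes. A07651 (0.86, 0.0140) and A02216 (0.78, 0.00936) had an adjusted p of limma under 0.05 below the fold threshold, and A08445 (0.66, 0.0546) did not. A06839 overlapped between the parts, at 29.0, 35.4 and 32.9963 FPKM and 28.7, 30.0 and 34.7, with a log2 difference of 0.06 (95% interval -0.41 to 0.53). Without harvest stipe 2 only A00566 was called. Quantile normalisation called 5 members and library totals 6, but library totals also moved the median of all genes by 0.36.

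At maturation the demethylase set pileus and stipe apart most. A00566 had 100.4, 114 and 73.9 FPKM in pileus and 37.5, 31.1 and 29.2 in stipe, a 2.91-fold difference (log2 1.54 ± 0.25 SE, adjusted p of limma 0.000370) that was called in all 18 alternatives. A00804 had 184, 177 and 112 FPKM and 73.0, 82.2 and 79.8. The desaturase A00787 went the other way, with 49.2, 58.6 and 53.1 FPKM in pileus and 75.8, 68.6 and 64.7 in stipe. Every pileus library was above every stipe library for A00566, A00804, A02216, A07666 and A06839, and below for A00787. The share of all genes separated in this way was not counted at this stage. The log2 difference was 0.97 for A00804 (adjusted p of limma 0.00197), 0.81 for A07666 (0.0234) and -0.38 for A00787 (0.0248), all short of the fold threshold, so that 1 of 9 members was called higher, against 13.6% of 9338 genes. The remaining 5 had adjusted p-values of limma from 0.118 to 0.637. Without button stipe 1 and maturation pileus 3 the differences of A00566 and A00804 were 1.72 and 1.20, both were called, and 3589 genes and not 2345 were called in all. A00804 was also called without maturation stipe 2 and with library totals.

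The tissue labels were set against gene lists for each part. The gill and spore list was picked by words of meiosis, spore formation or the HORMA domain. In a mushroom meiosis and spore formation happen in the gills of the pileus. A03768, A04333 and a newly found transcript have only a HORMA domain, and A09829 only that of a stage II sporulation protein E. These are not shown to be gill markers. At the button, harvest and maturation stages 7.91%, 16.7% and 13.6% of all genes were called higher in pileus. The 6 genes of the list had 0 members called higher in pileus at the button stage and 2 each at harvest and maturation. Their summed level was 278 to 298 FPKM in button pileus and 250.1 to 319 in button stipe, 305 to 313 and 219 to 282 at harvest, and 284 to 407 and 220.0 to 247 at maturation, and none of the 6 was at 0. Of the 25 hydrophobins, small secreted coat proteins, 14 were tested, of which 2 were called higher in pileus at each stage and 5, 6 and 6 lower, where 9.96%, 14.9% and 11.5% of all genes were called lower. The summed level of the 25 was 18379 to 29549 FPKM in pileus and 6663 to 27936 in stipe at the button stage, 13077 to 30316 and 12486 to 36085 at harvest, and 5071 to 69979 and 2402 to 4717 at maturation. The part of cell make-up in the sterol differences was not tested.

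**Figure D3:**
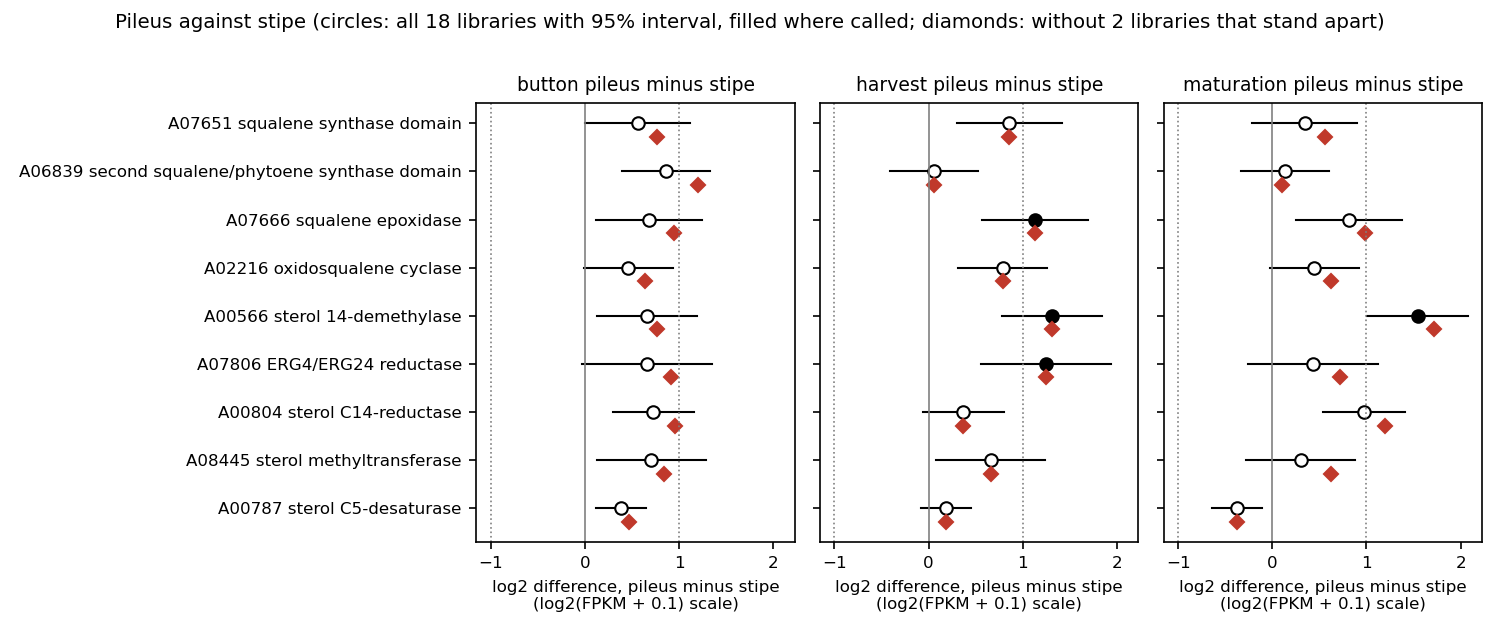
Log2 difference between pileus and stipe (x axis, log2(FPKM + 0.1) scale) of each member (y axis) at 3 stages. Circles with 95% intervals are from all 18 libraries, filled where called, and diamonds are without button stipe 1 and maturation pileus 3. A00566 is the only member called at both harvest and maturation, and A00787 lies below 0 at maturation.

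The difference between pileus and stipe was then itself compared between the button and the maturation stage. No member was called, against 9.38% of 9338 genes, but the desaturase A00787 moved beyond its error: its log2 difference changed by -0.77 ± 0.18 (SE, 95% interval -1.14 to -0.39, adjusted p of limma 0.0121). The demethylase moved the other way by 0.89 (0.116) and A06839 by -0.72 (0.145), neither past the adjusted threshold. Without button stipe 1 and maturation pileus 3, A06839 was called (-1.09, adjusted p of limma 0.000527), and the count over all genes rose from 876 to 2489. The demethylase was called without maturation pileus 3 alone (1.07, adjusted p of limma 0.0291). For the remaining 6 the change lay between -0.40 (A08445) and 0.25 (A00804), with intervals that reached both sides of 0.

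Within the pileus, A07806 and the methyltransferase fell between button and maturation. A07806 had 199.999, 225 and 231 FPKM at the button stage and 73.3, 89.9 and 44.6 at maturation, and A08445 had 675, 729 and 825 and 299.9, 396 and 176. The stages did not overlap. The log2 changes were -1.71 ± 0.32 (SE, adjusted p of limma 0.000692) and -1.43 ± 0.27 (0.000741), so 2 of 9 members were called lower, against 12.5% of 9338 genes. A00566 (-0.83), A02216 (-0.71), A07666 (-0.71) and A00787 (-0.49) had an adjusted p of limma under 0.05 at less than 2-fold. Without maturation pileus 3 the changes of A07806 and A08445 were -1.42 and -1.10, both called, those of A00566, A02216 and A07666 were -0.66, -0.53 and -0.53 with adjusted p-values of limma from 0.0507 to 0.129, and that of A07651 went from -0.60 to -0.39. A00804 had 139, 145 and 150.3 FPKM and 184, 177 and 112, a log2 difference of 0.09 that turned to -0.30 with library totals and -0.18 with quantile normalisation. Library totals moved the median of all genes by -0.38 here and called 5 members lower.

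Within the stipe the demethylase fell most. A00566 had 126, 85.1 and 115 FPKM at the button stage and 37.5, 31.1 and 29.2 at maturation, A07806 had 195, 102 and 132 and 56.2, 58.7 and 36.5, and A08445 had 545, 379 and 455 and 211, 264 and 200.2. All maturation stipes were below all button stipes. The log2 changes were -1.72 ± 0.25 (SE, adjusted p of limma 0.000106), -1.48 ± 0.32 (0.00219) and -1.03 ± 0.27 (0.00751). These 3 of 9 were called lower, against 13.8% of 9338 genes. The values of 2 genes were positive, A06839 (0.54, 0.0588) and A00787 (0.27, 0.0878). Without button stipe 1 and maturation pileus 3 the value of A08445 was -0.90 and its call was lost, those of A00566 (-1.61) and A07806 (-1.23) stayed past the threshold, and A06839 had 0.87 (adjusted p of limma 0.000113).

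The whole fruit body lay between its parts for 9 of 9 members at the button stage and 8 of 9 at maturation, but not at harvest. Of 9449 genes, 10.6% were above both parts and 13.2% below both at the button stage, and 14.9% and 20.6% at maturation, so most genes lay between as well. The counts of members were the same without button stipe 1, button fruit body 2, maturation pileus 3 and maturation fruit body 1. At harvest the mean of the whole fruit body was above both pileus and stipe for 8 of 9 members, against 24.1% of 9449 genes (22.4% were below both), and for 7 of 9 with library totals. A07651 had 211 ± 36.8 FPKM (SD, n = 3) in the whole harvest fruit body, 137 ± 18.2 in its pileus and 78.8 ± 26.4 in its stipe. A00566 had 187 ± 37.9, 125 ± 26.0 and 51.5 ± 16.7. The excess over the higher part was 1.16-fold (A00804) to 1.54-fold (A07651). No test was made of it.

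The members did not all move as one. Over the 33 libraries the 36 pairs had a median Pearson r of 0.67 on log2 values, from 0.14 to 0.98. A02216, A07666, A07806, A08445, A07651 and A00566, a set picked after the values were seen, had r from 0.81 to 0.98 in their 15 pairs, and 0.83 to 0.93 for the deviations of the libraries from their condition means. The closest pair was A07806 and A08445 (r = 0.98, Spearman rho 0.97). A00804 reached r = 0.68 at most with any other member, A00787 0.74 and A06839 0.65, the last with A00804. Against the mean of the other 8, r was 0.94 for A07651 and A07666, 0.93 for A08445, 0.91 for A02216, 0.90 for A07806, 0.87 for A00566, 0.70 for A00804, 0.61 for A00787 and 0.34 for A06839. These points share libraries and scaling and are given as a description.

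**Figure D4:**
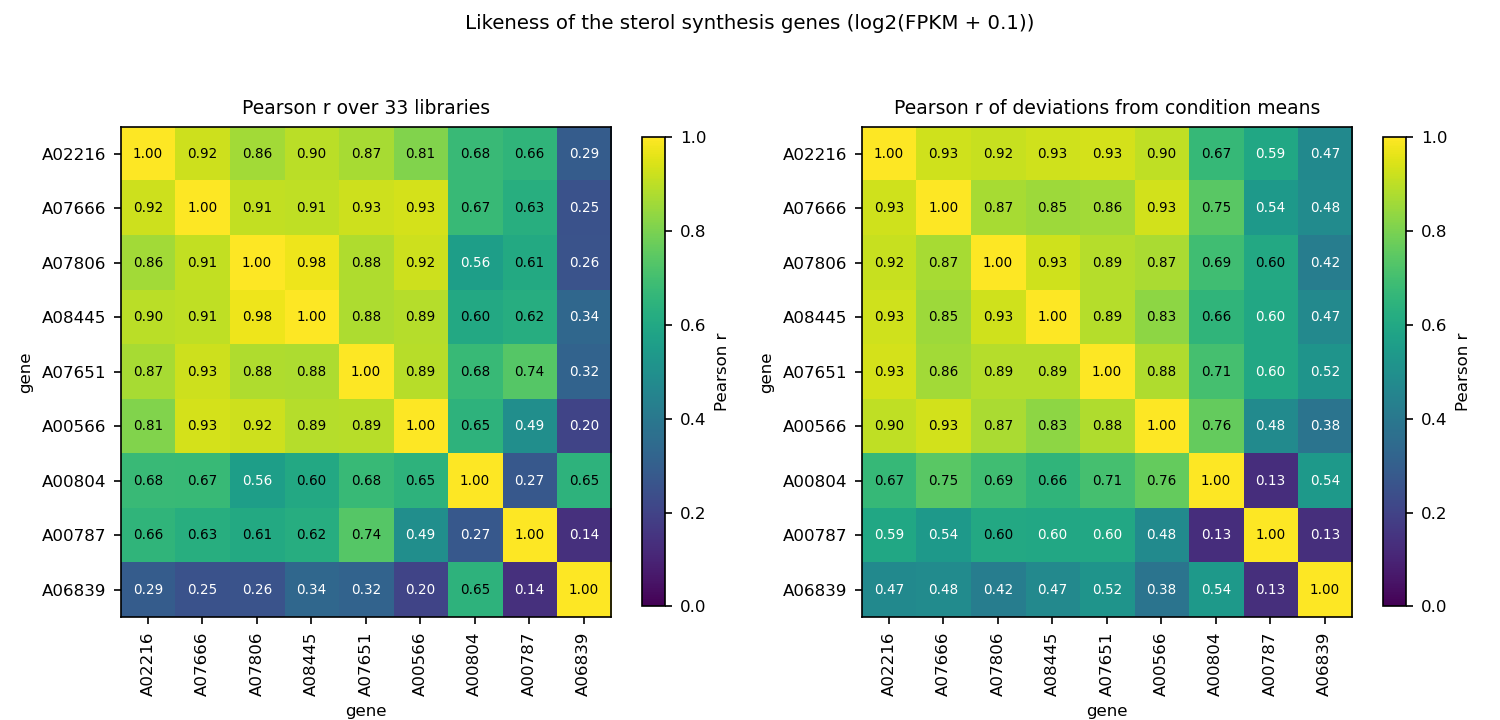
Pearson r between members on log2(FPKM + 0.1), over the 33 libraries (left) and over the deviations of the libraries from their condition means (right). The first 6 genes on the axes are alike in both (r of at least 0.81), and A06839, the last, is not.

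The 2 ERG4/ERG24 genes traded places. The ratio of A07806 to A00804 was 0.521 to 0.760 in mycelia, 1.70 to 1.91 in primordia and 1.03 to 1.44 in harvest fruit bodies. It stayed above 1 in every library from primordia through the button stage and in whole harvest fruit bodies, spanned 0.942 to 1.46 in harvest pileus, and was below 1 in every harvest stipe (0.434 to 0.791) and every maturation library (0.398 to 0.770). A00804 was therefore the more abundant of the pair in mycelia and at maturation. The scaling of the libraries cancels in this ratio. For the 2 squalene/phytoene synthase genes, A07651 exceeded A06839 in every library, by 1.62-fold in harvest stipe 2 to 10.5-fold in button stipe 3.

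**Figure D5:**
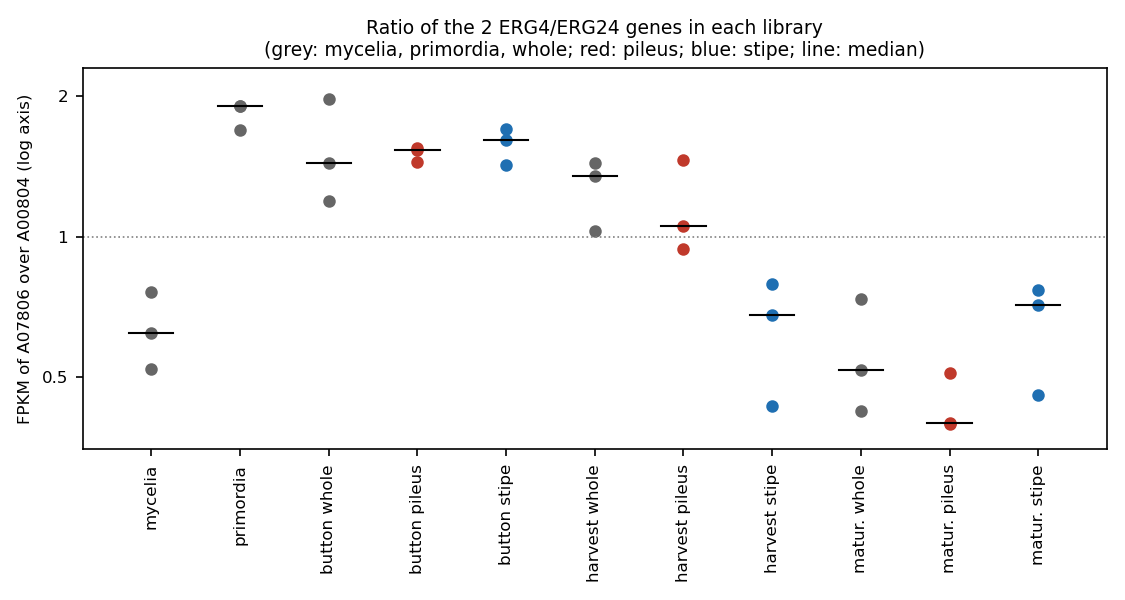
Ratio of the FPKM of A07806 to that of A00804 (y axis, log scale) in each of the 33 libraries by condition (x axis), with the median of 3 libraries as a line. The ratio lies above 1 from primordia through the button stage and between 0.398 and 0.770 at maturation.

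Other genes of the route were counted by the words of their descriptions. Of all genes, 15.1% were called higher and 22.5% lower from mycelia to primordia, and 5.24% and 5.63% from harvest to maturation fruit bodies. The median log2 change of all genes was -0.04 at the first of these steps and 0.05 at the second. In pileus against stipe 7.91%, 16.7% and 13.6% of all genes were called higher at button, harvest and maturation. The shares called lower were 9.96%, 14.9% and 11.5%. Of 11 genes for isoprenoid supply, 4 rose and 0 fell from mycelia to primordia, 0 and 3 changed from harvest to maturation fruit bodies, and 1 was higher and 1 lower in pileus at every stage. Their median log2 changes at the 2 steps were 0.38 and -0.36. A01324, which carries a GHMP kinase domain as mevalonate kinase does, together with a ferrochelatase domain, rose by 1.30 in primordia. A07802, the hydroxymethylglutaryl-CoA synthase of the first committed steps, fell by 1.56 between harvest and maturation fruit bodies, from 561 ± 159 to 187 ± 30.7 FPKM (SD, n = 3; adjusted p of limma 0.0226). The 16 genes with words of later sterol steps include some, such as the tRNA ligase A00287, that entered only by a prenyltransferase and squalene oxidase repeat. Of the 16, 15 passed the low-value filter, and 4 rose and 1 fell in primordia while 0 rose and 3 fell at maturation, with medians of 0.46 and -0.37. A01153, of the ERG2 sterol isomerase family, fell by 2.63, from 158 ± 53.3 to 25.2 ± 6.61 FPKM (adjusted p of limma 0.00991). Erg28-like A00678, which in yeast holds sterol enzymes together, fell by 2.19 in the stipe between button and maturation and was 1.02 higher in maturation pileus than in stipe. Of the emopamil-binding genes, also a sterol isomerase family, one newly found transcript rose by 1.76 in primordia and another fell by 2.08.

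The 13 genes of sterol sensing, transport and storage had 0 higher and 3 lower in primordia, 0 and 1 from harvest to maturation, and 3 higher in pileus and 4 higher in stipe at maturation than at the button stage, with 0 lower. The 3 of 13 lower in primordia were close to the share of all genes, and 13.7% and 12.4% of all genes were called higher in pileus and in stipe. The medians were -0.66 in primordia and -0.10 at maturation. Oxysterol-binding A07191, a family that moves sterols between membranes, fell by 1.46 in primordia, rose by 1.61 in the stipe between button and maturation, and had 157 ± 36.9 FPKM in harvest pileus against 829 ± 184 in harvest stipe (SD, n = 3). A02797, of the membrane-bound O-acyltransferases that include the sterol esterifying enzymes, fell by 1.11 at maturation. Of 21 genes with electron donor words, which include cytochrome b561 and other b5-fused enzymes, 1 rose and 4 fell in primordia, no more than the shares of all genes, and 0 and 1 of the 20 tested changed from harvest to maturation. The medians were -0.080 and -0.36. The desaturase with a b5 domain A03774 fell there by 1.21. Of the 25 hydrophobins, 4 rose and 17 fell in primordia, among the 23 tested, and of the 6 genes of the gill and spore list 1 rose and 2 fell.

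Among 5223 other described genes with a mean of at least 5 FPKM, the profiles most like the mean of the 9 members over the 33 libraries were A04071, a DEAD/DEAH box helicase (r = 0.94), a newly found protein kinase transcript (0.93), A00726 of the impB/mucB/samB family (0.93), the DnaJ gene A09253 (0.93) and the SSRP1-like A06813 (0.92). None was in a pathway list.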

How the data were processed

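RNA was sequenced from 33 libraries of *A. blazei* strain JA, and genes were counted with featureCounts 1.5.0-p3 per the labels. The authors deposited one table of FPKM values for 10337 genes, on the JA-15036 assembly and its predicted and newly found transcripts. FPKM multiplied by the coding length gave whole multiples of one unit in 100% of values within 1e-06, so reads were recovered. The library size inside FPKM was 0.742 to 1.22 times the recovered reads, and the median-ratio factors of the FPKM values were equal in all libraries. Differences were tested with limma 3.58.1 in R 4.3.3 on log2(FPKM + 0.1), with a trend in the prior variance, for genes with a mean of at least 0.5 FPKM over the libraries of the fit. Each step between stages was fitted on its 6 libraries, and pileus and stipe on 18 together. Benjamini-Hochberg adjustment ran over all genes tested. With 3 libraries against 3, an exact permutation test cannot give a p below 0.1, so none was used for single genes. The total reads of each library, 15573864 to 21454052, leave a counting error of at most 7.65% in the members, and precision rests mainly on the spread between libraries (coefficients of variation of up to 50.9% within a condition).

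Alternatives were a pseudocount of 1 or 0.01, no filter or one at 5 FPKM, median-ratio, quantile and library-total scaling, no trend, voom on the recovered reads, all 33 libraries in the fit, the replicate number as a block, and each library left out. Leaving out button stipe 1 and maturation pileus 3 together was added after the data were seen, as were means without these, button fruit body 2 and maturation fruit body 1. Same-numbered libraries all deviated together, by a limit of r above 0.1, only for button fruit body against primordia (r = 0.112, 0.285 and 0.115). The script was tested on simulated data. Named genes were the 9 members, the called gene with the largest rise and fall of each list whose libraries did not overlap, from which examples are given, and the 5 genes most like the members; genes of the closing section outside this rule were chosen after their values were seen. The 6 lists (isoprenoid supply; later sterol steps; electron donors; sterol sensing, transport and storage; gills and spore formation; hydrophobins) were made from words in the deposited descriptions, and 2 genes stand in more than one list. The members and lists were chosen with earlier results of these data known. No sequences are shown.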

Additional observations from a re-analysis of the deposited data

Results flagged for a closer look

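The difference between pileus and stipe was tested for a change between the button and the maturation stage only, and with all 18 libraries the sterol desaturase A00787 was the one member with an adjusted p of limma under 0.05. It changed by -0.77 (log2) from button to maturation, with an adjusted p of limma of 0.0121. A00787 had 75.4 ± 2.83 FPKM in pileus and 57.7 ± 5.49 in stipe at the button stage, and 53.6 ± 4.77 and 69.7 ± 5.64 at maturation (SD, n = 3). The value stayed between -0.86 and -0.70 in the 24 alternatives, with adjusted p-values of limma from 0.00192 to 0.0381. It was never at the fold threshold of 2. Under 2 of the 24 alternatives each, A06839 and A00566 also had an adjusted p of limma under 0.05.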

How the results depend on the processing

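Of 1638 recomputed member values, 1542 kept their direction and side of the threshold, 33 turned sign, 33 passed the threshold only under the alternative and 30 lost it. None of the sign changes was of a called value, and no cause was tested. Values that turned sign with 1 library left out had these ranges. For primordia against mycelia it was A06839 -0.34 to 0.12. For button fruit body against primordia they were A02216 -0.40 to 0.23, A07666 -0.76 to 0.015, A07806 -0.49 to 0.28, A08445 -0.54 to 0.26, A07651 -0.31 to 0.28, A06839 -0.18 to 0.27, A00566 -0.61 to 0.091, A00787 -0.032 to 0.22 and A00804 -0.0071 to 0.41. For harvest pileus against stipe it was A06839 -0.0053 to 0.14, and for the change from button to maturation A02216 -0.19 to 0.16, A07666 -0.13 to 0.40 and A07806 -0.48 to 0.055. A00804 ran from -0.039 to 0.32 in the pileus and from -0.31 to 0.072 in the stipe from button to maturation. Library totals turned A06839 to 0.19 in primordia and -0.067 in button fruit bodies, A00804 to -0.30 in the pileus and A00787 to -0.023 in the stipe. Quantile normalisation turned A06839 to -0.0028 in button fruit bodies, A07666 to -0.087 in the change of difference and A00804 to -0.18 in the pileus, and median-ratio scaling turned A06839 to -0.0023 in button fruit bodies. Without button stipe 1 and maturation pileus 3, A00804 was at 0.072 in the stipe.

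The number of members called at maturation against harvest fruit bodies ran from 0 to 7 with 1 library left out. It ran from 0 to 1 for button pileus against stipe, 1 to 4 at harvest, 1 to 2 at maturation and 0 to 1 for the change of the difference. Library totals called 1 member at the button stage, 6 at harvest, 2 at maturation, and 5 in the pileus from button to maturation, and left 2 members highest in harvest fruit bodies. Quantile normalisation called 5 in harvest pileus. Without button stipe 1 and maturation pileus 3, 1 member was called at the button stage, 2 at maturation and 1 in the change. Over all genes, the calls with 1 library left out ran from 0 to 379 for button fruit body against primordia, 0 to 87 for harvest against button, 27 to 2238 for maturation against harvest, 993 to 2427 for button pileus against stipe, and 561 to 2202 for the change, and without those 2 libraries they were 2751 at the button stage, 3589 at maturation and 2489 for the change. With no filter or no trend 0 genes were called for button fruit body against primordia, and with all 33 libraries 32. For harvest against button the count was 7 with a filter at 5 FPKM, 0 with voom and 540 with all 33 libraries, and with all 33 it was 2192 for maturation against harvest.

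With the replicate number as a block, 0 genes were called for button fruit body against primordia, 4 for harvest against button and 23 for maturation against harvest, with 0 members called at that step. The block changed no other count of members. Outside button fruit body against primordia the same-numbered libraries were not all above the limit of r = 0.1 (r from -0.491 to 0.338). For harvest against button fruit body they had 0.338, 0.338 and 0.017. With 3 pairs a limit of this kind cannot tell whether same-numbered samples had a common origin.

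Library totals changed the balance of calls. Genes higher and lower were 2292 and 1589 in primordia against 1431 and 2130 with the deposited scaling (1897 and 1763 with quantile normalisation), 975 and 742 against 739 and 930 in button pileus, 2311 and 935 against 1558 and 1391 in harvest pileus, 810 and 2004 against 1281 and 1168 in the pileus from button to maturation, and 735 and 1861 against 1156 and 1292 in the stipe. For the change of the difference they were 410 and 416 against 551 and 325, and 548 and 490 with quantile normalisation. The fewest reads behind a value of a member were 171, a counting error of 7.65%.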

Other observations

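Genes outside the 9 that carry words of the route differed in how closely they followed the mean of the members over the 33 libraries. Of 13 genes with words of the later sterol steps and a mean of at least 5 FPKM, 10 had a positive and 3 a negative r. The median was 0.36 and the range -0.73 (A00287) to 0.86. A00287, described as a tRNA ligase, and A05076 (r = -0.43) entered only by a prenyltransferase and squalene oxidase repeat. They are not shown to be sterol genes. The hydroxylase-family gene A05124 (r = 0.86), the 3-beta-hydroxysteroid dehydrogenase A00926 (0.86), a newly found emopamil-binding transcript (0.86) and the ERG2-family A01153 (0.83) were close. The electron donors did not follow as a list, with r from -0.51 (A01465) to 0.86. Cytochrome b561 A04631 (0.86) and the b5-fused desaturase A03774 (0.85) were the closest of them. The isoprenoid genes ran from -0.66 (A04143) to 0.81 (A03882), and those of sterol sensing, transport and storage from -0.76 to 0.78 (A02797). The hydroxymethylglutaryl-CoA reductase A01751 had r = -0.53 and oxysterol-binding A07191 had -0.76. These genes were singled out after their values were seen. The points share libraries and scaling.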
